A study of Rattus norvegicus with 12 samples.

Results

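Smooth muscle and pericyte markers were followed in neonatal rat heart cell cultures given DEHP, the phthalate di(2-ethylhexyl) phthalate, which softens polyvinyl chloride plastics. The set was chosen by gene name and held 10 genes: Acta2, Tagln, Cnn1, Myh11, Myocd, Smtn, Pdgfrb, Cspg4, Lmod1 and Actg2. Of these, 9 had a probe set with a single gene symbol, out of 14324 genes measured in this way, and each of the 9 had exactly 1 probe set. Acta2 was not analysed here. At 50 µg/ml, 6 of the 9 measured genes changed against the vehicle, where 17.6% of all genes passed the threshold. Cspg4, Cnn1, Smtn and Tagln fell, while Actg2 and Pdgfrb rose. None of the 9 passed the threshold at 1 or 10 µg/ml, where 4.24% and 0% of all genes did.

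The cells came from hearts of Sprague-Dawley rat pups aged 2 days, were isolated by enzymatic digestion and grew for 3 days before exposure. They then received DEHP at 1, 10 or 50 µg/ml for 3 days, with the solvent dimethyl sulphoxide (DMSO) at 0.1% in every group, and the vehicle group received 0.1% DMSO alone. There were 12 arrays in 4 groups of 3. The series description calls them biological replicates made from a single litter, and the tests therefore speak of the variation among cultures of that litter. Affymetrix arrays measured total RNA of the whole monolayer.

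Each deposited value is a ratio of an array to its probe set's median across the 12 arrays, and all values below are log2 ratios or differences between them. This centring removes the level of a gene, so nothing is known here about which marker was abundant, and neither the labelled cardiomyocyte identity nor the presence of smooth muscle cells or pericytes could be checked from levels. The ratio was read as array over median, a direction that no source used here records. If it were the other way round, all rises and falls below, and every order among them, would swap at equal size on the log2 scale. A change in RNA from the whole culture cannot be told apart as fewer cells of a type or less RNA per cell. The interquartile range of an array's log2 ratios was 0.078 to 0.081 in the vehicle, 0.11 to 0.12 at 1 µg/ml and 0.11, 0.16 and 0.13 at 50 µg/ml, and at 10 µg/ml it was 0.15 on replicate 2 and 0.079 to 0.086 on the other two arrays.

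As background, smooth muscle cells and pericytes are the mural cells that wrap blood vessels. Smooth muscle cells contract through smooth muscle isoforms of actin and myosin, and most of their contractile genes are switched on by serum response factor (SRF) together with its coactivators myocardin or the myocardin-related factors. SRF partly drives immediate early genes too, through other partners. Several of the markers are not private to mural cells: immature heart muscle cells and activated fibroblasts (myofibroblasts) can also make smooth muscle actin, transgelin and calponin.

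The promoter windows below are shown because 3 of the 4 genes that fell at 50 µg/ml have one in the RefSeq table, which held windows for 4 of the 9 measured genes. They run over the 250 bases before the annotated start of Cnn1 (chr8:28908187-28908436, plus strand), Smtn (chr14:82644515-82644764, minus strand) and Cspg4 (chr8:66160692-66160941, plus strand) in RefSeq's GRCr8 build, written 5′ to 3′ along the gene. Capitals mark the E-box CANNTG and the GC box GGGCGG on either strand, which do not overlap here.
Cnn1: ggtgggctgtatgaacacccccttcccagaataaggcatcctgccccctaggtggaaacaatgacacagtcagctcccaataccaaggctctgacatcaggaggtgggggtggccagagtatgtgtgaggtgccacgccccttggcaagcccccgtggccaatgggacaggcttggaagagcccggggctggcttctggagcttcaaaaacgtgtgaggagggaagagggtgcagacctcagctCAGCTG
Smtn: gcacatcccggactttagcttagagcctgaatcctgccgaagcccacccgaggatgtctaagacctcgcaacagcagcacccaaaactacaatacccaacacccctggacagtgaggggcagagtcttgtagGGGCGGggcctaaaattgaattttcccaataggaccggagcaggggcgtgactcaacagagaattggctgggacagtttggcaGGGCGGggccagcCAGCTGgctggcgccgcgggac
Cspg4: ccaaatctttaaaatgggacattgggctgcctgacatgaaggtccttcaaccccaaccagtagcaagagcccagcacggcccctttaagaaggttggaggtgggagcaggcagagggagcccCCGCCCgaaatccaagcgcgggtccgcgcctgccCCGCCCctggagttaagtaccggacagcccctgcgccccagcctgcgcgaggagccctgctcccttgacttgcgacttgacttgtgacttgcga
The CArG box, the binding motif of SRF, was searched only in its exact form, CC followed by 6 bases of A or T and GG. None was present in these 3 windows or in that of Actg2, and 1.5% of all 33469 windows of this length held one. Variants of the motif and sequence outside the windows were not searched, so SRF sites of those kinds cannot be judged. Cnn1 and Smtn each held 1 E-box, as 65.5% of all windows held at least 1, and Cspg4 held none. Smtn and Cspg4 each held 2 GC boxes and Cnn1 none, against 30.5% of windows with at least 1. The start used for the window of Actg2 lies 10340 bases inside its gene model, so that window is not printed. The arrays measured RNA and not binding, and the windows describe sequence only.

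Setting 50 µg/ml against the vehicle asked how the marker genes stood at the highest dose. Of the 9 genes, 2 were higher, 4 were lower and 3 did not pass the threshold, an adjusted p of 0.05 in limma over all 14324 genes. Among all genes 17.6% passed, 8.75% higher and 8.84% lower. The arrays of the 2 groups did not overlap for 7 of the 9 genes, and for 36.0% of all genes. The median difference over the 9 genes was -0.085, and over all genes it was 0.018, while the members that passed went both ways. The genes had been picked with earlier results of these data known, so these shares are given as a description.

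**Figure D1:**
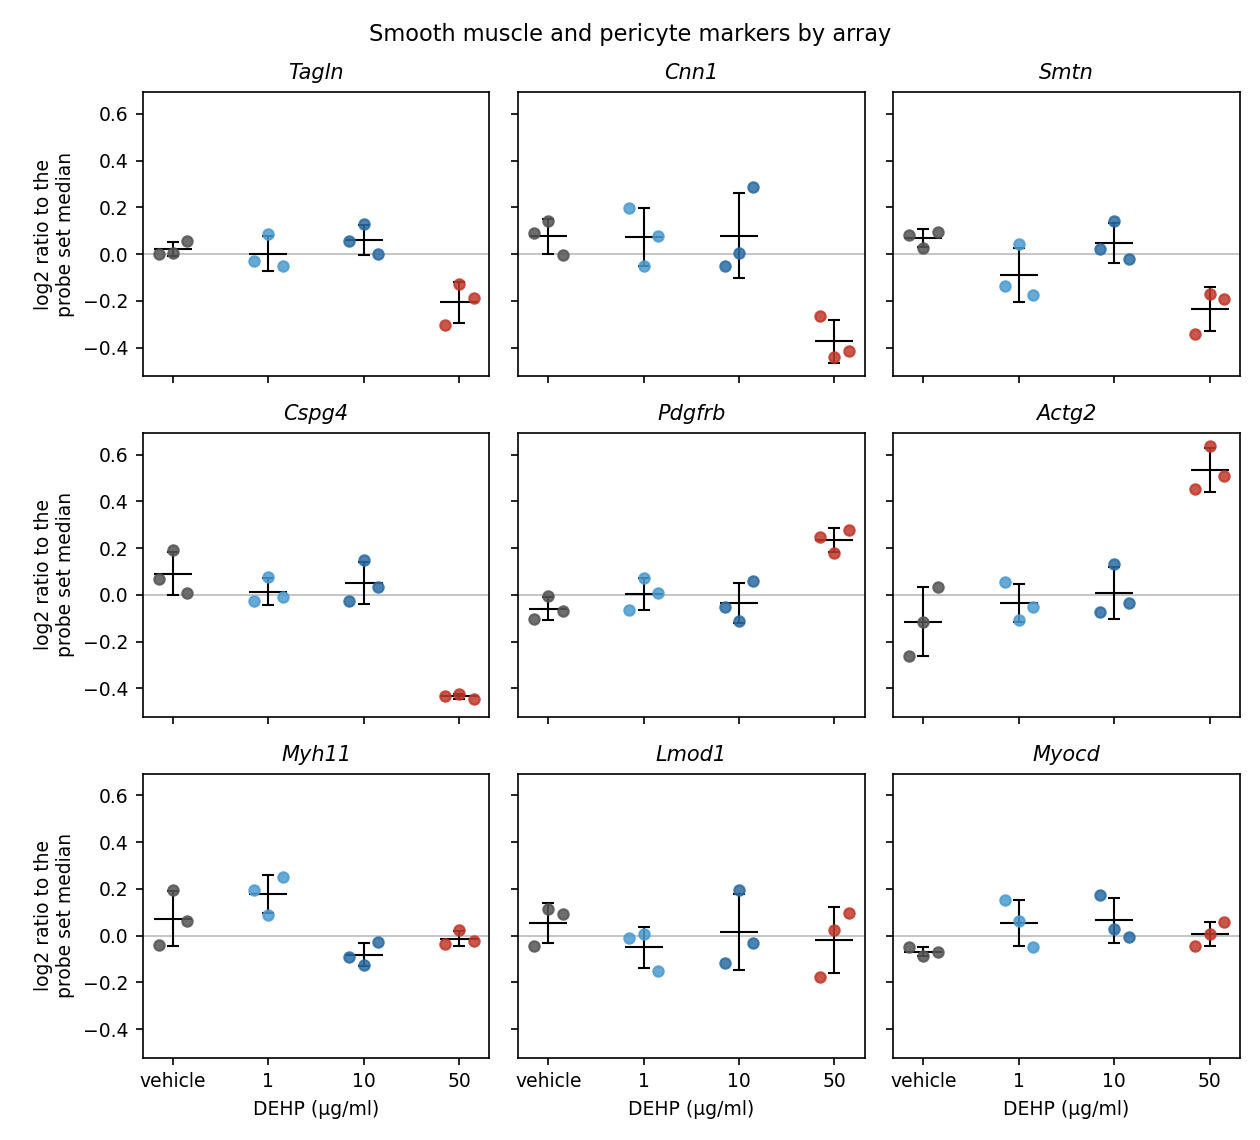
Each point is the log2 ratio of 1 array to the median of its probe set, for the 9 measured genes in the vehicle and at 1, 10 and 50 µg/ml DEHP; horizontal marks are group means and bars are SD (n = 3 arrays). The 50 µg/ml arrays lie apart from all 9 others for Tagln, Cnn1, Cspg4, Pdgfrb and Actg2, whereas those of Myh11, Lmod1 and Myocd overlap with arrays of other groups.

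Among the contractile genes, Actg2 encodes the gamma isoform of smooth muscle actin, the form that prevails in visceral smooth muscle. Its log2 ratios were -0.26, -0.12 and 0.034 in vehicle replicates 1, 2 and 3, 0.056, -0.11 and -0.051 at 1 µg/ml, -0.074, 0.13 and -0.034 at 10 µg/ml and 0.45, 0.64 and 0.51 at 50 µg/ml. The 50 µg/ml arrays were the highest 3 of the 12, and the other groups overlapped with each other. Actg2 rose by 0.65 ± 0.081 (SE) on the log2 scale at 50 µg/ml, or 56.7%, with an adjusted p of 0.000133 in limma. It had the largest change of the 9 genes in either direction and also the widest range within the vehicle arrays.

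Cnn1 encodes calponin 1, which binds actin and restrains the ATPase of smooth muscle myosin. Its log2 ratios were 0.089, 0.14 and -0.0033 in the vehicle, 0.20, -0.053 and 0.075 at 1 µg/ml, -0.052, 0.0033 and 0.29 at 10 µg/ml and -0.27, -0.44 and -0.41 at 50 µg/ml. The 50 µg/ml arrays were the lowest 3 of the 12, while 10 µg/ml replicate 3 stood highest. Cnn1 fell by 26.8% at 50 µg/ml, a log2 difference of -0.45 ± 0.089 (adjusted p = 0.00368, limma).

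Smtn encodes smoothelin, a protein bound to actin stress fibres in contractile smooth muscle. The log2 ratios of Smtn were 0.083, 0.026 and 0.096 in the vehicle, -0.14, 0.043 and -0.18 at 1 µg/ml, 0.023, 0.14 and -0.023 at 10 µg/ml and -0.34, -0.17 and -0.19 at 50 µg/ml. At 50 µg/ml all 3 arrays lay below the 3 vehicle arrays, but 1 µg/ml replicate 3 lay below 50 µg/ml replicate 2. Smtn fell by 19% against the vehicle, a log2 difference of -0.30 ± 0.068 (adjusted p = 0.00776, limma).

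Tagln encodes transgelin (SM22 alpha), an actin-binding protein widely used to mark smooth muscle. The Tagln arrays read 0.0016, 0.0061 and 0.058 in the vehicle, -0.028, 0.086 and -0.050 at 1 µg/ml, 0.055, 0.13 and -0.0016 at 10 µg/ml and -0.30, -0.13 and -0.19 at 50 µg/ml. The highest dose held the lowest 3 arrays, with replicate 1 furthest down. Tagln fell by 14.6%, a log2 difference of -0.23 ± 0.057 (adjusted p = 0.0152, limma), the smallest of the 6 changes. This call was lost without vehicle replicate 3, where the difference was -0.21 and the adjusted p 0.061, and without 50 µg/ml replicate 1, where the difference was -0.18 and the adjusted p 0.0604.

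Myh11, the smooth muscle myosin heavy chain and the most restricted of these contractile markers, did not pass at 50 µg/ml. On the log2 scale its ratios were -0.038, 0.20 and 0.061 in the vehicle, 0.20, 0.088 and 0.25 at 1 µg/ml, -0.092, -0.12 and -0.028 at 10 µg/ml and -0.036, 0.025 and -0.025 at 50 µg/ml. The difference of 50 µg/ml from the vehicle was -0.085 ± 0.063, with a 95% interval of -0.22 to 0.051 (adjusted p = 0.42, limma). Lmod1 encodes leiomodin 1, which nucleates actin filaments in smooth muscle. Lmod1 arrays read -0.045, 0.11 and 0.094 in the vehicle, -0.0086, 0.0086 and -0.15 at 1 µg/ml, -0.12, 0.20 and -0.033 at 10 µg/ml and -0.17, 0.024 and 0.097 at 50 µg/ml, and all 4 groups overlapped. Its difference at 50 µg/ml was -0.072 ± 0.089, with a 95% interval of -0.26 to 0.12 (adjusted p = 0.659, limma).

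Myocd encodes myocardin, the SRF coactivator that drives contractile genes in smooth and heart muscle. The myocardin ratios were, in log2, -0.049, -0.088 and -0.070 in the vehicle, 0.15, 0.061 and -0.047 at 1 µg/ml, 0.18, 0.030 and -0.0054 at 10 µg/ml and -0.044, 0.0054 and 0.060 at 50 µg/ml. Every DEHP array lay above all 3 vehicle arrays, narrowly so for 1 µg/ml replicate 3 and 50 µg/ml replicate 1, and the DEHP groups overlapped with each other. Myocd was the only one of the 9 genes free of overlap with the vehicle at 1 or 10 µg/ml, where 30.8% and 11.2% of all genes were. The differences were 0.12 ± 0.061, 0.14 ± 0.061 and 0.076 ± 0.061 at 1, 10 and 50 µg/ml, and none passed (adjusted p = 0.278, 0.786 and 0.465, limma). The 95% interval at 50 µg/ml was -0.056 to 0.21.

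The pericyte markers moved in opposite directions. Cspg4 encodes the proteoglycan NG2 on the surface of pericytes, which other cells such as glial progenitors also carry. Its log2 ratios were 0.070, 0.19 and 0.0097 in the vehicle, -0.028, 0.078 and -0.0097 at 1 µg/ml, -0.027, 0.15 and 0.033 at 10 µg/ml and -0.43, -0.43 and -0.44 at 50 µg/ml. The arrays at 50 µg/ml lay within 0.018 of each other and were the lowest of the 12. Cspg4 fell by 30.5%, a log2 difference of -0.52 ± 0.059 (adjusted p = 5.64e-05, limma), the largest fall among the 9 genes with the ratio read as array over median.

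Pdgfrb encodes the beta receptor for platelet-derived growth factor, through which endothelial cells recruit pericytes, and fibroblasts carry it too. Its log2 ratios were -0.10, -0.0067 and -0.071 in the vehicle, -0.066, 0.073 and 0.0067 at 1 µg/ml, -0.050, -0.11 and 0.059 at 10 µg/ml and 0.25, 0.18 and 0.28 at 50 µg/ml. The 50 µg/ml arrays were the highest 3, and the other groups overlapped. Pdgfrb rose by 0.29 ± 0.056, or 22.6% (adjusted p = 0.00286, limma).

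**Figure D2:**
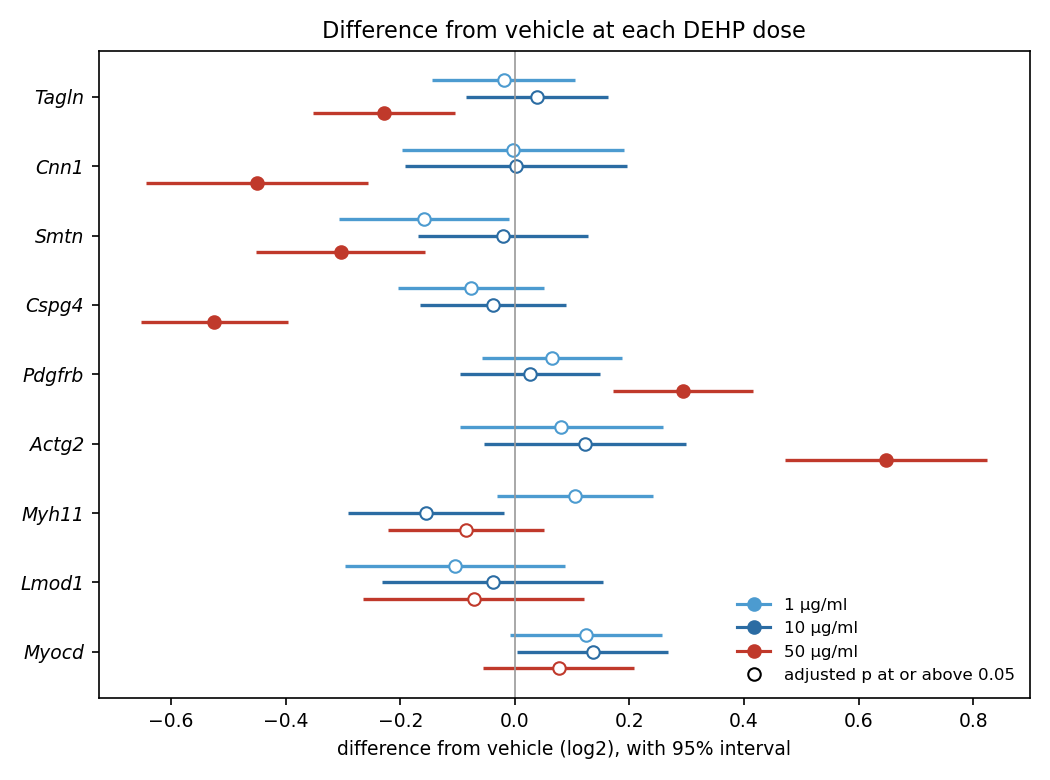
Points are differences of group mean log2 ratios from the vehicle at 1, 10 and 50 µg/ml DEHP for the 9 genes, bars are 95% intervals from limma (n = 3 arrays per group), and open points did not pass an adjusted p of 0.05. Filled points occur at 50 µg/ml alone, for Tagln, Cnn1, Smtn and Cspg4 below 0 and for Pdgfrb and Actg2 above 0.

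The comparisons of the lower doses with the vehicle asked whether the markers differed there, and they share the vehicle arrays with the comparison above. At 1 µg/ml 0 of the 9 genes passed in limma, against 4.24% of all genes, and 1 of the 9 had an unadjusted p under 0.05, against 20.2% of all genes. That gene was Smtn, at -0.16 ± 0.068 with a 95% interval of -0.31 to -0.011 (adjusted p = 0.216). Its replicate 2 at this dose lay inside the range of the vehicle arrays. Cnn1 and Tagln stood at -0.0035 ± 0.089 and -0.019 ± 0.057, Cspg4 at -0.077 ± 0.059, Pdgfrb at 0.064 ± 0.056, Actg2 at 0.081 ± 0.081 and Lmod1 at -0.10 ± 0.089, none of which passed. Myocd is given above, and Myh11 stood at 0.10 ± 0.063, with a 95% interval of -0.031 to 0.24.

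At 10 µg/ml 0 of the 9 genes passed in limma, and 0% of all genes did. An unadjusted p under 0.05 was found for 2 of the 9, against 6.28% of all genes. These were Myh11, at -0.15 ± 0.063, whose 10 µg/ml arrays overlapped with vehicle replicate 1, and Myocd. Actg2 stood at 0.12 ± 0.081 with a 95% interval of -0.054 to 0.30. The values of Cspg4, Smtn, Cnn1, Tagln, Pdgfrb and Lmod1 lay between -0.039 and 0.039, with intervals that reach no further than -0.23 below and 0.20 above 0. Without 10 µg/ml replicate 2 the count at this dose was again 0.

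The comparisons between doses tested whether the differences at 50 µg/ml were larger than those lower down. They share the 50 µg/ml arrays with the comparison against the vehicle, so the values are given side by side and agreement between them is not separate evidence. Against 10 µg/ml 6 of the 9 genes passed, Actg2 and Pdgfrb higher and Cspg4, Cnn1, Smtn and Tagln lower, where 14.6% of all genes passed, 7.75% higher and 6.85% lower. Actg2 was higher by 0.53 ± 0.081 and Pdgfrb by 0.27 ± 0.056, with adjusted p of 0.000825 and 0.00607 in limma. Cspg4 fell by 0.49 ± 0.059, Cnn1 fell by 0.45 ± 0.089, Smtn fell by 0.28 ± 0.068 and Tagln fell by 0.27 ± 0.057 (adjusted p = 0.000134, 0.00418, 0.0136 and 0.007, limma). Smtn lost this call without 50 µg/ml replicate 1 (adjusted p = 0.0607, difference -0.23), and both Smtn (adjusted p = 0.0548) and Pdgfrb (adjusted p = 0.0588) lost it after a repeated quantile normalization.

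Against 1 µg/ml, where 24.9% of all genes passed, 11.5% higher and 13.4% lower, the count was again 6 with 2 higher and 4 lower. Actg2 and Pdgfrb were higher by 0.57 ± 0.081 and 0.23 ± 0.056, and Cspg4, Cnn1, Tagln and Myh11 fell by 0.45 ± 0.059, 0.45 ± 0.089, 0.21 ± 0.057 and 0.19 ± 0.063 (adjusted p of 0.000214 for Cspg4, 0.0037 for Cnn1, 0.0194 for Tagln and 0.0427 for Myh11, limma). Smtn missed the threshold here at -0.15 ± 0.068 (adjusted p = 0.142), and its mean at 1 µg/ml, -0.090, lay between those of the vehicle and of 50 µg/ml. Tagln lost the call without 1 µg/ml replicate 2 (adjusted p = 0.0811) and without 50 µg/ml replicate 1 (adjusted p = 0.0693), Pdgfrb lost it after a repeated quantile normalization (adjusted p = 0.0709), and Myh11 lost it in 10 of 15 alternatives, among them the removal of 1 µg/ml replicate 1 or 3 or of any 50 µg/ml array.

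Between 10 and 1 µg/ml Myh11 alone passed, where 14.0% of all genes did and 9.20% were lower. Myh11 was lower at 10 µg/ml, where it fell by 0.26 ± 0.063 against 1 µg/ml (adjusted p = 0.019, limma). The 3 arrays at 1 µg/ml lay above all 3 at 10 µg/ml, and the vehicle arrays spanned the gap between them. Without 1 µg/ml replicate 1 or 3, or without 10 µg/ml replicate 2, the adjusted p was 0.0641, 0.0802 or 0.0636, and the count was then 0. Myh11 was thus the one marker whose doses differed from each other while none of them passed against the vehicle.

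The genes nearest in pattern to each of the 6 changed markers were taken as the 3 with the highest Pearson correlation over the 12 arrays, which share the split between 50 µg/ml and the other doses, so the coefficients are a description. For Cspg4 they were Nckap1l (0.98), Myo1f (0.98) and Megf10 (0.98), of which the first pair are known from blood cells and fell by 1.33 and 0.99 at 50 µg/ml (adjusted p = 1.12e-06 and 4.27e-07, limma). For Tagln they were Fxyd5 (0.97), Nupr1 (0.97) and P2ry6 (0.96), and for Smtn Plekho1 (0.96), Atoh8 (0.96) and Nrros (0.95). These fell at 50 µg/ml as well, among them P2ry6 at -0.37 and Nrros at -0.60 (adjusted p = 0.00374 and 0.000366, limma). The cell types known for them are not given here, so the remark on blood cells does not set Cspg4 apart. Those of Cnn1 were Arid4a (0.95), Rgs4 (0.94), a regulator of G protein signalling, and Gask1b (0.93). Pdgfrb was nearest to Abca8a (0.99), Tpcn1 (0.96) and Sat2 (0.94), and Actg2 to Rpp25 (0.97), Ctxn1 (0.97) and Tmem150a (0.96). No marker was among the 3 genes nearest to another marker. Between markers the highest coefficient was that of Tagln with Smtn (0.92), while Pdgfrb with Actg2 had 0.78 and Cspg4 with Actg2 -0.90.

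Other genes of the contractile programme were read from a list of 35 contractile and focal adhesion genes, of which 29 were measured. At 50 µg/ml 7 were lower, 2 were higher and 20 did not pass, with a median of -0.068 against 0.018 over all genes, of which 8.84% were lower and 8.75% higher. The LIM protein Pdlim3 fell by 0.54 ± 0.05, the collagen-binding integrin subunit Itga1 fell by 0.50 ± 0.07, the LIM protein Csrp2 fell by 0.29 ± 0.05 and the actin crosslinker Flna fell by 0.23 ± 0.04 (adjusted p = 2.44e-05, 0.00024, 0.00155 and 0.00174, limma). Core parts of the smooth muscle contractile apparatus, chosen here after their values were seen, did not pass against the vehicle: the regulatory light chain Myl9 stood at -0.12 ± 0.05, caldesmon Cald1 at -0.068 ± 0.043, the myosin light chain kinase Mylk at -0.0048 ± 0.081 and the tropomyosin Tpm2 at -0.17 ± 0.06 (adjusted p = 0.161, 0.341, 0.978 and 0.0582, limma). At 50 against 10 µg/ml, where 14.6% of all genes passed, Tpm2 and Myl9 were lower, at -0.30 ± 0.06 and -0.20 ± 0.05 (adjusted p = 0.003 and 0.0223, limma). At 50 against 1 µg/ml, where 24.9% of all genes passed, Cald1 was lower, at -0.19 ± 0.04 (adjusted p = 0.00837, limma). Mylk passed in neither. The 2 higher genes, the small heat shock protein Hspb6 (0.23 ± 0.07) and Pdlim7 (0.23 ± 0.07), each lost the call in several alternatives, and neither passed without vehicle replicate 2 or without any one of the 50 µg/ml arrays; 1 passed without vehicle replicate 1 or 3 or 1 µg/ml replicate 2. At 1 µg/ml, where 4.24% of all genes passed, 1 of the 29 was higher and 0 lower, but 0 were higher without vehicle replicate 2 or 3 or 1 µg/ml replicate 1 or 3, and array weights gave 2 higher and 2 lower. At 10 µg/ml 0 passed in limma, where 0% of all genes did.

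A list of regulators of the smooth muscle programme held 38 names, some of them older and newer names of the same gene, and gave 31 measured genes. At 50 µg/ml 8 were higher and 5 lower, against 8.75% higher and 8.84% lower among all genes, while 18 did not pass (median 0.040). The count of higher genes was 4 without vehicle replicate 1, vehicle replicate 3 or 50 µg/ml replicate 3. Srf rose by 0.34 ± 0.05 (adjusted p = 0.000454, limma) in the cultures where Cnn1, Smtn and Tagln fell and Actg2 rose, while Myh11, Lmod1 and Myocd did not pass. Any relation of the regulators to the markers was not tested. Klf4, a zinc finger factor known to repress contractile smooth muscle genes, rose by 0.60 ± 0.07 (adjusted p = 5.89e-05). The growth factor Tgfb3 fell by 0.54 ± 0.05 and the Notch ligand Jag1 fell by 0.38 ± 0.05 (adjusted p = 2.28e-05 and 0.000106, limma). At 1 µg/ml, where none of the 9 markers passed, Klf4 was higher too, at 0.27 ± 0.07 (adjusted p = 0.0478, limma). Jag1 was again lower at that dose, at -0.33 ± 0.05 (adjusted p = 0.00308, limma). In all, 1 regulator was higher and 2 were lower at 1 µg/ml, against 4.24% of all genes called in either direction. These counts ran from 0 to 3 and from 1 to 4 over the alternatives. At 10 µg/ml 0 of the 31 passed in limma, against 0% of all genes, and Jag1 stood at -0.092 ± 0.046. Jag1 was higher at 10 than at 1 µg/ml, by 0.24 ± 0.05 (adjusted p = 0.00723, limma).

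A list of early targets of SRF and of the YAP pathway held 16 names, some of them older and newer names of the same gene. It gave 13 measured genes, holds Tagln itself and shares Srf, Vcl and the actins Actb and Actg1 with the lists above. At 50 µg/ml, where 17.6% of all genes passed, 7 were higher and 3 lower (median 0.20), so the members went both ways. The immediate early transcription factors Egr1, Fos and Egr3 rose by 1.44 ± 0.13, 1.16 ± 0.15 and 0.89 ± 0.08, while the matricellular protein Ccn2 fell by 0.37 ± 0.05 (adjusted p = 0.000201) and the adhesion protein Vcl fell by 0.29 ± 0.06 (adjusted p = 0.00293). Ccn1, on the same list, went the other way from Ccn2 and rose by 0.20 ± 0.05 (adjusted p = 0.018, limma). At 1 µg/ml, where no marker and 4.24% of all genes passed, 5 were higher and 1 lower, with Fos at 1.56 ± 0.15 and Egr1 at 1.07 ± 0.13 (adjusted p = 0.000277 and 0.00121, limma). At 10 µg/ml 0 of the 13 passed in limma, against 0% of all genes, with Fos at 0.022 ± 0.15 and Egr1 at 0.11 ± 0.13. The difference of 10 from 1 µg/ml was -1.54 ± 0.15 for Fos and -0.95 ± 0.13 for Egr1 (adjusted p = 0.000179 and 0.00143, limma).

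Further pericyte genes came from a list of 20, of which 14 were measured. At 50 µg/ml 4 were higher and 4 lower, while 6 did not pass, against 17.6% of all genes called, so they split as Pdgfrb and Cspg4 did. Abcc9 and Kcnj8, which together form the ATP-sensitive potassium channel of mural cells and are also made in heart muscle, rose by 1.04 ± 0.07 and 0.74 ± 0.10 (adjusted p = 7.33e-07 and 0.00029, limma). The membrane protein Cd248 rose by 0.43 ± 0.09 (adjusted p = 0.00677). Rgs5, a regulator of G protein signalling that is a standard pericyte marker, fell by 0.78 ± 0.06 (adjusted p = 1.9e-06). The count of lower genes was 2 without vehicle replicate 1, vehicle replicate 2 or 50 µg/ml replicate 2. At 1 and 10 µg/ml 0 of the 14 passed in limma, against 4.24% and 0% of all genes. In some alternatives genes of the list did pass at 1 µg/ml: 2 were higher without 10 µg/ml replicate 2 or with array weights, and 1 was higher and 1 lower with only the 2 groups compared.

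**Figure D3:**
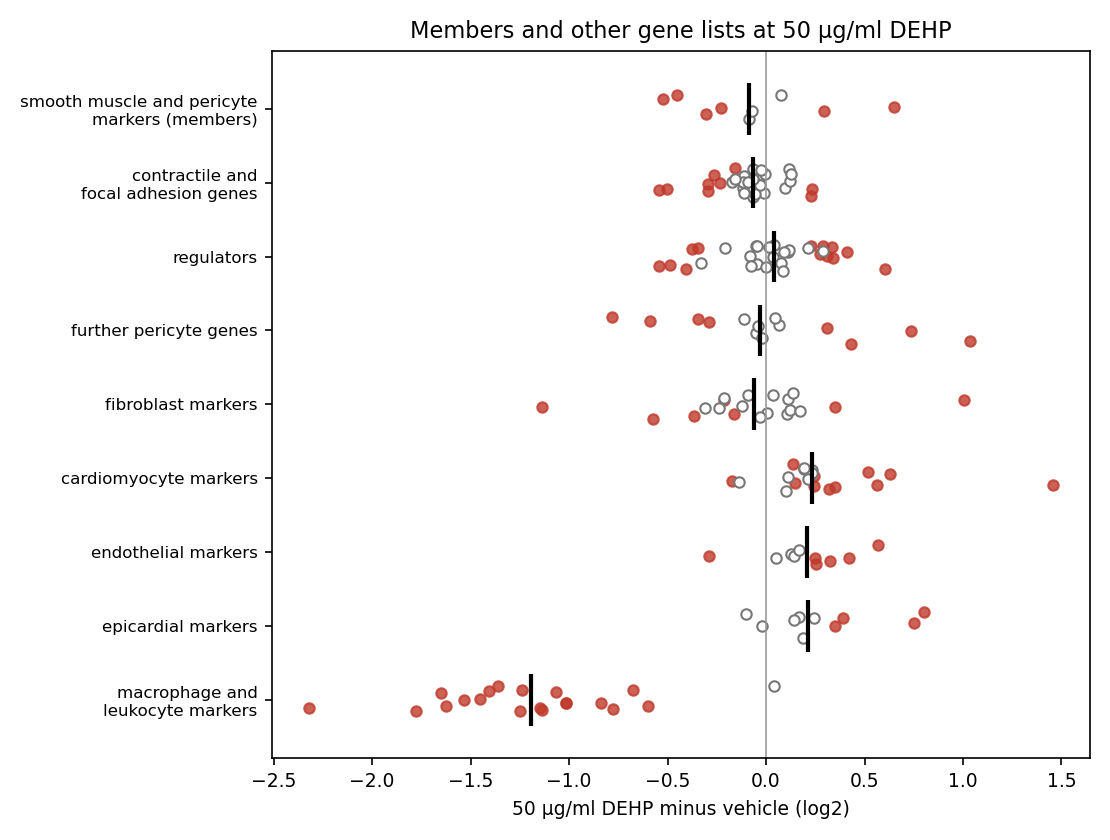
Each point is 1 gene's difference between 50 µg/ml DEHP and the vehicle on the log2 scale, by gene list; filled points passed an adjusted p of 0.05 in limma, vertical bars are list medians, and the vertical spread of points within a row has no meaning. The 9 markers spread to both sides of 0 with a median of -0.085, as do the further pericyte genes, whereas 19 of 20 macrophage and leukocyte markers lie to the left with a median of -1.19.

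Markers of other cell types moved in the same cultures, to be read against 17.6% of all genes called at 50 µg/ml, and their part in the values of the 9 genes was not tested. Macrophage and leukocyte markers were lower for 19 of 20 genes at 50 µg/ml, with a median of -1.19, and Cd163 was the exception (0.039 ± 0.090). The mean log2 ratio over this list ran from -1.03 to -0.95 on the 50 µg/ml arrays, from 0.17 to 0.27 on the vehicle arrays, from -0.21 to 0.11 at 1 µg/ml and from -0.071 to 0.16 at 10 µg/ml. Fibroblast markers, which matter because fibroblasts can carry Pdgfrb and Tagln, were higher for 2 and lower for 5 of 20 (median -0.061), with list means of -0.074 to 0.022 at 50 µg/ml and 0.017 to 0.049 in the vehicle. Cardiomyocyte markers were higher for 10 and lower for 1 of 19 (median 0.24), with list means of 0.11 to 0.20 and -0.21 to -0.014. Endothelial markers were higher for 5 and lower for 1 of 10 (median 0.21), with list means of 0.16 to 0.28 and -0.011 to 0.047. The endothelial count of higher genes was 0 after a repeated quantile normalization and 1 to 3 without any one vehicle array or without 50 µg/ml replicate 2 or 3. At 1 µg/ml, where 4.24% of all genes passed, the endothelial markers went the other way, with 0 higher and 3 of 10 lower (median -0.28). Their list means at that dose were -0.33 to -0.21, below all 3 vehicle arrays. That count of lower genes was 0 without vehicle replicate 2 or 1 µg/ml replicate 3, 1 without vehicle replicate 1 and 2 to 4 in the other alternatives. Macrophage and fibroblast markers each had 0 higher and 3 of 20 lower at 1 µg/ml, again against 4.24% of all genes. These counts were 0 to 2 without any one vehicle or 1 µg/ml array. Epicardial markers at 50 µg/ml were higher for 4 and lower for 0 of 10 (median 0.22), with list means of 0.17 to 0.30 and -0.11 to -0.0068 in the vehicle. The cardiomyocyte count of higher genes was 5 without vehicle replicate 3 or 50 µg/ml replicate 3 and 6 without 50 µg/ml replicate 1, the epicardial count was 2 without vehicle replicate 2, and the fibroblast count of higher genes was 1 in several omissions, that of vehicle replicate 1, 2 or 3 among them. The macrophage count was 19 in each of the 19 alternatives run on these lists. Since the ratios are centred, a marker at or near background could not be told from an abundant one.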

How the data were processed

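Per the submitters' processing notes, the Affymetrix arrays were processed by the authors with RMA, a method that subtracts background, normalises by quantiles and summarises each probe set (version not given in the sources used here). Deposited values are linear ratios of each array to the probe set's median over 12 arrays, a centring found from the values, since the median log2 ratio of every probe set was 0 to within 4.8e-07. They ran from 0.165 to 12.2.

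Gene names came from the platform's annotation (15097 of 27342 had 1 symbol, 323 several, 11922 none). Group means of the log2 ratios were fitted over all 12 arrays with limma 3.58.1 in R 4.3.3 and moderated by empirical Bayes, with 8 residual degrees of freedom before moderation. Two-sided p-values received a Benjamini-Hochberg adjustment over 14324 genes. Errors are standard errors of the difference, n = 3 arrays per group, and the number of arrays limits the precision. An exact permutation of 3 arrays against 3 cannot go below p = 0.1. The fit was tested on simulated data. The set, the context lists and the tests were chosen with earlier results of these data known. All measured members are named. From the contractile, regulator, early target and pericyte lists mainly the genes with the smallest p at 50 µg/ml are named. The lists of other cell types are given as counts, medians and list means, with Cd163 named as the exception. No dim-probe filter was possible, since levels are lost.

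The replicate numbers of the labels were checked for pairing: the deviations of same-numbered arrays correlated between -0.23 and 0.43 over 18 pairs, 6 of them above 0.1, so the numbers were not taken to pair the arrays. Alternatives were other normalizations, moderations, weights, sets of arrays and thresholds, and omission of each array.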

Additional observations from a re-analysis of the deposited data

How the results depend on the processing

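Counts of the 9 markers past the threshold were recomputed under 21 alternatives per comparison. At 50 µg/ml against the vehicle the count was 5 or 6, and 5 to 6 over the omissions of an array. It was 0 throughout at 1 and at 10 µg/ml against the vehicle. For 50 against 10 µg/ml it ran from 4 to 6 (5 to 6 over the omissions), and for 50 against 1 µg/ml from 3, at the adjusted p threshold of 0.01, to 6 (4 to 6 over the omissions). For 10 against 1 µg/ml it was 0 at the threshold of 0.01 and 0 to 1 over the omissions. No changed marker turned its direction in any alternative. With the replicate number as a block the count for 50 against 1 µg/ml was 5, Myh11 missing at an adjusted p of 0.0536, and no other count moved. In the pairing check 5 of 12 arrays correlated best with an array of their own number. Centring arrays or repeating the quantile normalization moved the median of all genes by under 0.1. For the called markers at 50 µg/ml against the vehicle the adjusted p over the alternatives reached 0.061 for Tagln, 0.034 for Smtn, 0.0255 for Cnn1, 0.0173 for Pdgfrb, 0.0015 for Actg2 and 0.000767 for Cspg4. Signal over background was not analysed here, so a marker that did not pass may have been too dim to follow.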
